A study of Mus musculus with 12 samples.

Results

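The urea cycle converts ammonia to urea in the liver. Cps1 (carbamoyl-phosphate synthetase, which fixes ammonia inside mitochondria), Ass1 (argininosuccinate synthetase), Asl (argininosuccinate lyase) and Arg1 (arginase) encode enzymes of the cycle, and Oat (ornithine aminotransferase) consumes ornithine, its carrier molecule. Glucocorticoids are known to raise urea cycle enzymes in liver, where amino acids from protein breakdown feed glucose synthesis. The glucocorticoid receptor (GR) is a nuclear receptor that moves to the nucleus on hormone binding and attaches to DNA at glucocorticoid response elements, often at a distance from the gene.

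GR binding at these 5 genes was read from 11 chromatin immunoprecipitation sequencing (ChIP-seq) libraries of BWTG3, a mouse hepatoma cell line. All cells had been kept in serum-free medium for 24 h. The group DEX (3 libraries) received 1 µM of the synthetic glucocorticoid dexamethasone (Dex), TNF (2 libraries) the cytokine tumour necrosis factor at 1000 U/ml, and TNFDEX (3 libraries) TNF 1 h before Dex, with 3 h of stimulation in all. NI (3 libraries) is read as untreated, since no agent stands in its titles. The series asks how TNF changes GR binding to DNA in glucocorticoid resistance. Gene expression is not part of these files, so binding at a gene says nothing here of its RNA level.

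Members were the peaks whose centre lay inside, or within 50 kb of, the mm10 span of one of the 5 genes. These were 68 peaks, which joined into 15 regions out of 47493 in the whole series. Of the 15, 6 lay at Cps1, 5 at Ass1, 2 at Asl, 1 at Arg1 and 1 at Oat, and 10 were called in at least 2 libraries of a group. A call in all 6 libraries that received Dex and in none of the other 5 was found at 5 of the 15, against 5.06% of all regions, and a call in all 11 at 0, against 0.248%. All signal values are normalized tag counts, the authors' tags in a peak scaled to 20000000 tags per library. The level at a site without a call is unknown, not 0. No genome sequence was used here, so sites are given by position only, and exons and introns are not separated.

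Depth was 39228805 to 51141996 tags per library. The libraries fell into 2 sets by the largest mitochondrial peak, which had 36246.9 to 54518.7 in NI 3, DEX 3, TNF 2, TNFDEX 2 and TNFDEX 3 and 1289.9 to 6953.2 in the other 6. The lists of NI 3 and TNF 2, both with high mitochondrial signal, were the shortest of the 11. NI 3 held none of the 15 regions and TNF 2 held 1. Their lists had 2524 and 4132 peaks, in a series of 47493 regions, so few calls at any 15 regions could come from them. Results below are given with this split where it moves with them.

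The highest values at the 5 genes were found at Ass1, in the 6 libraries with Dex (DEX and TNFDEX). The strongest region of the 5 genes lay 9.8 kb upstream of the Ass1 start, inside the span of the neighbouring gene Hmcn2 (chromosome 2, 31460391 to 31460570). It had 332.7, 437.9 and 927.1 in DEX and 437.5, 426.3 and 859.3 in TNFDEX, and it was called in none of the NI or TNF libraries. DEX 3 and TNFDEX 3 stood well above the other 4, which lay close together, and the DEX and TNFDEX values overlapped. The means were 566 ± 317 (SD, n = 3) in DEX and 574 ± 247 (n = 3) in TNFDEX. Both high values came from libraries with high mitochondrial signal, while TNFDEX 2, the remaining Dex library of that set, had 426.3, and the part of this split in the spread was not tested.

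The Ass1 site was among the strongest of the genome in each Dex library. It ranked between 2 and 20 among the nuclear peaks of the 6 libraries. The authors' ratios put it 64.3 to 154 times over the input and 54.5 to 77.5 times over its surroundings, and its focus ratio, the share of tags arranged around a single point, was 0.877 to 0.912. Its 6 peaks held 671 to 2152 tags each, and their centres lay within 9 bp of each other. Position was therefore far more constant between libraries than height.

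A second, weaker Ass1 region lay 10.8 kb upstream, also inside Hmcn2 (chromosome 2, 31459374 to 31459573). It had 49.1, 63.7 and 134.0 in DEX and 103.3, 53.2 and 108.5 in TNFDEX, with no call in NI or TNF. The centres of the pair were 991 to 1017 bp apart. In each library the stronger region had 4.24 to 8.01 times the signal of the weaker, with a median of 6.89. The 3 DEX ratios were 6.78, 6.87 and 6.92, although DEX 3 had more than both other libraries at each site, and TNFDEX 1 had the lowest ratio. The weaker region was 4.2 to 7.18 times over its surroundings, close to the 4-fold the caller required, and the 10000 bp used for that ratio take in the stronger region.

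Other calls at Ass1 were sparse. A region inside the gene (chromosome 2, 31506917 to 31507118) had 20.7 in DEX 3 and 22.2 in TNFDEX 3, the same 2 libraries that were highest upstream. Regions 0.8 kb and 1.2 kb beyond the gene's end were called once each, with 9.9 in DEX 3 and 9.7 in DEX 2. No peak centre lay between the upstream pair and the Ass1 start.

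**Figure D1:**
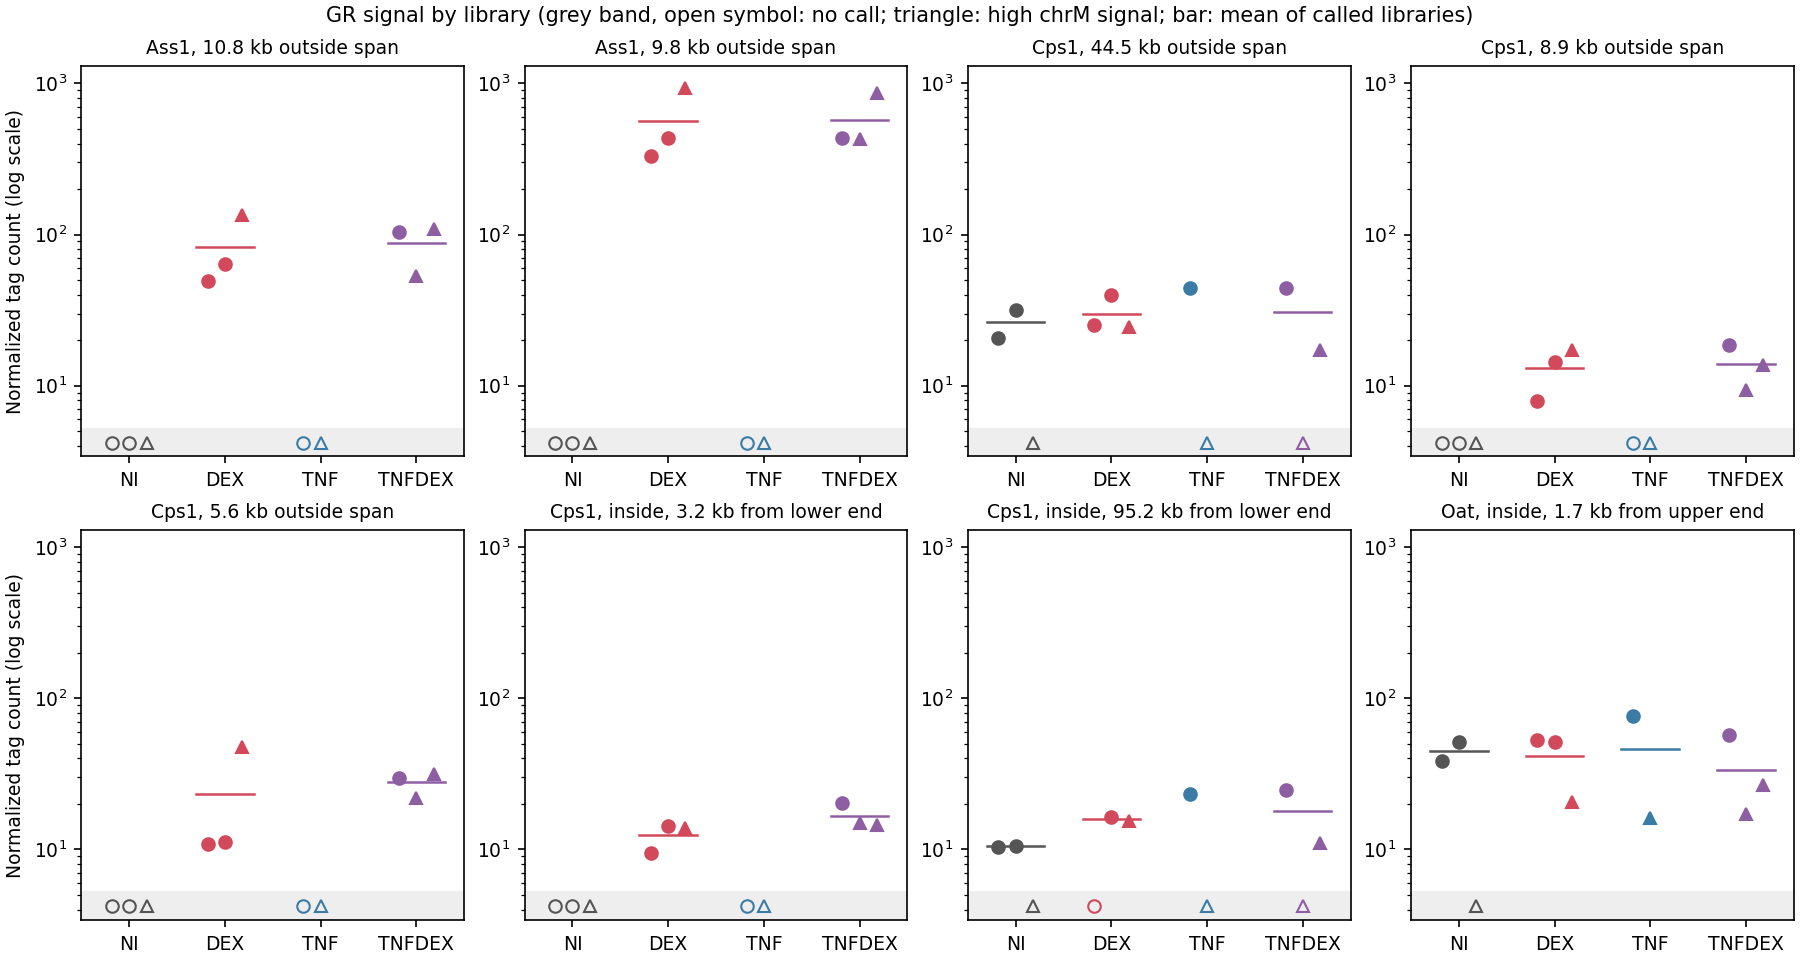
Normalized tag count (log scale) of the 8 regions called in at least 6 libraries, by group; each symbol is a library, open symbols in the grey band had no call, triangles mark libraries with high mitochondrial signal and bars are means of at least 2 called libraries. Both Ass1 regions and 3 Cps1 regions were called in all 6 Dex libraries and in no other, and the Oat values are lower in triangles than in circles.

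At Cps1, 3 of the 6 regions were likewise called in all 6 Dex libraries and in no other, at a much lower level. The lists hold more peaks in DEX than in NI. In the Dex libraries these 3 regions ranked between 1682 and 9097 among the nuclear peaks. Each list was then reduced to its 2524 strongest peaks, as many as in the shortest. None of the 3 was then called in more than 1 DEX library. Both upstream Ass1 regions stayed in 3 of 3 DEX, 3 of 3 TNFDEX and no other libraries. Such a cut drops most calls of the ranks seen at Cps1, whatever NI holds. The part of list length in the 3 Cps1 patterns was not tested. The first lay 5.6 kb outside the lower-coordinate end of the gene (chromosome 1, 67116733 to 67116948). It had 10.9, 11.2 and 47.4 in DEX and 29.9, 21.9 and 31.7 in TNFDEX. The TNFDEX values lay between those of DEX 3 and the other 2 DEX libraries, so DEX 3 alone set the DEX mean of 23.2 ± 21.0 (n = 3), which was 11.1 without it.

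The second Cps1 region of this kind lay 8.9 kb outside the same end (chromosome 1, 67113431 to 67113629), with 7.9, 14.3 and 17.2 in DEX and 18.7, 9.4 and 13.6 in TNFDEX. The third lay inside the gene, 3.19 kb from that end (chromosome 1, 67125491 to 67125748), with 9.4, 14.3 and 13.8 in DEX and 20.3, 14.9 and 14.4 in TNFDEX. None of the 3 was called in NI or TNF. Peaks of the first held 22 to 110 tags, of the second 16 to 45 and of the third 19 to 49, so their heights carry a large counting error. In the third, every TNFDEX value was above every DEX value, by as little as 0.1, which also held for 2.59% of the 4023 regions called in all 6 Dex libraries.

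Of the remaining 3 Cps1 regions, 2 were also called without Dex. One lay 44.5 kb outside the gene (chromosome 1, 67077835 to 67078026), where the nearest gene is Lancl1 at 39.0 kb. It had 20.8 and 31.9 in NI 1 and 2, 25.3, 39.8 and 24.6 in DEX, 44.6 in TNF 1 and 44.4 and 17.3 in TNFDEX 1 and 3. NI values lay within the range of the Dex libraries, and the region was called in 6 of 6 libraries with low and 2 of 5 with high mitochondrial signal. Another lay inside Cps1, 95.2 kb from the lower end (chromosome 1, 67217499 to 67217706). It had 10.4 and 10.6 in NI 1 and 2, 16.3 and 15.5 in DEX 2 and 3, 23.3 in TNF 1 and 24.9 and 11.1 in TNFDEX 1 and 3. The NI values were the lowest of the 7, and TNF 1 and TNFDEX 1 the highest. A last region, 18.8 kb outside the gene, was called in DEX 3 only, with 6.5 and 15 tags.

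The Oat gene had a single region that was present with and without Dex. It lay inside the gene, 1.68 kb downstream of its start (chromosome 7, 132574622 to 132574824), and was called in 10 of 11 libraries, all but NI 3. Its values were 38.6 and 51.2 in NI, 53.0, 51.0 and 20.7 in DEX, 76.5 and 16.1 in TNF, and 56.8, 17.2 and 26.7 in TNFDEX. All 4 groups overlapped. The 6 libraries with low mitochondrial signal had 38.6 to 76.5 and the 4 called libraries with high signal 16.1 to 26.7, without overlap. Among the regions called in all 6 Dex libraries, 6.34% had every high-signal library below every low-signal one and 3.75% the reverse. The part of this split in the Oat values was not tested.

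Asl and Arg1 had only weak calls, and each main call lay at a neighbouring gene. The Asl region lay inside Gusb, which encodes beta-glucuronidase, 8.5 kb from Asl (chromosome 5, 130002605 to 130002860). It had 11.4 and 9.7 in NI 1 and 2, 15.3 in DEX 2 and 10.4 in TNFDEX 1, all libraries with low mitochondrial signal. A peak inside Asl, 0.16 kb from its upper-coordinate end (chromosome 5, 130024150 to 130024296), was called in TNF 1 alone, with 9.6. The Arg1 region lay 45.3 kb from Arg1 and 52 bp from Med23, which encodes a Mediator subunit (chromosome 10, 24869844 to 24870025). It had 9.9 and 10.7 in DEX 1 and 2 and 9.1 in TNFDEX 1, from 20 to 22 tags, and no call in the other 8 libraries. All 3 calls came from libraries with low mitochondrial signal. No peak centre lay inside the Arg1 span.

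**Figure D2:**
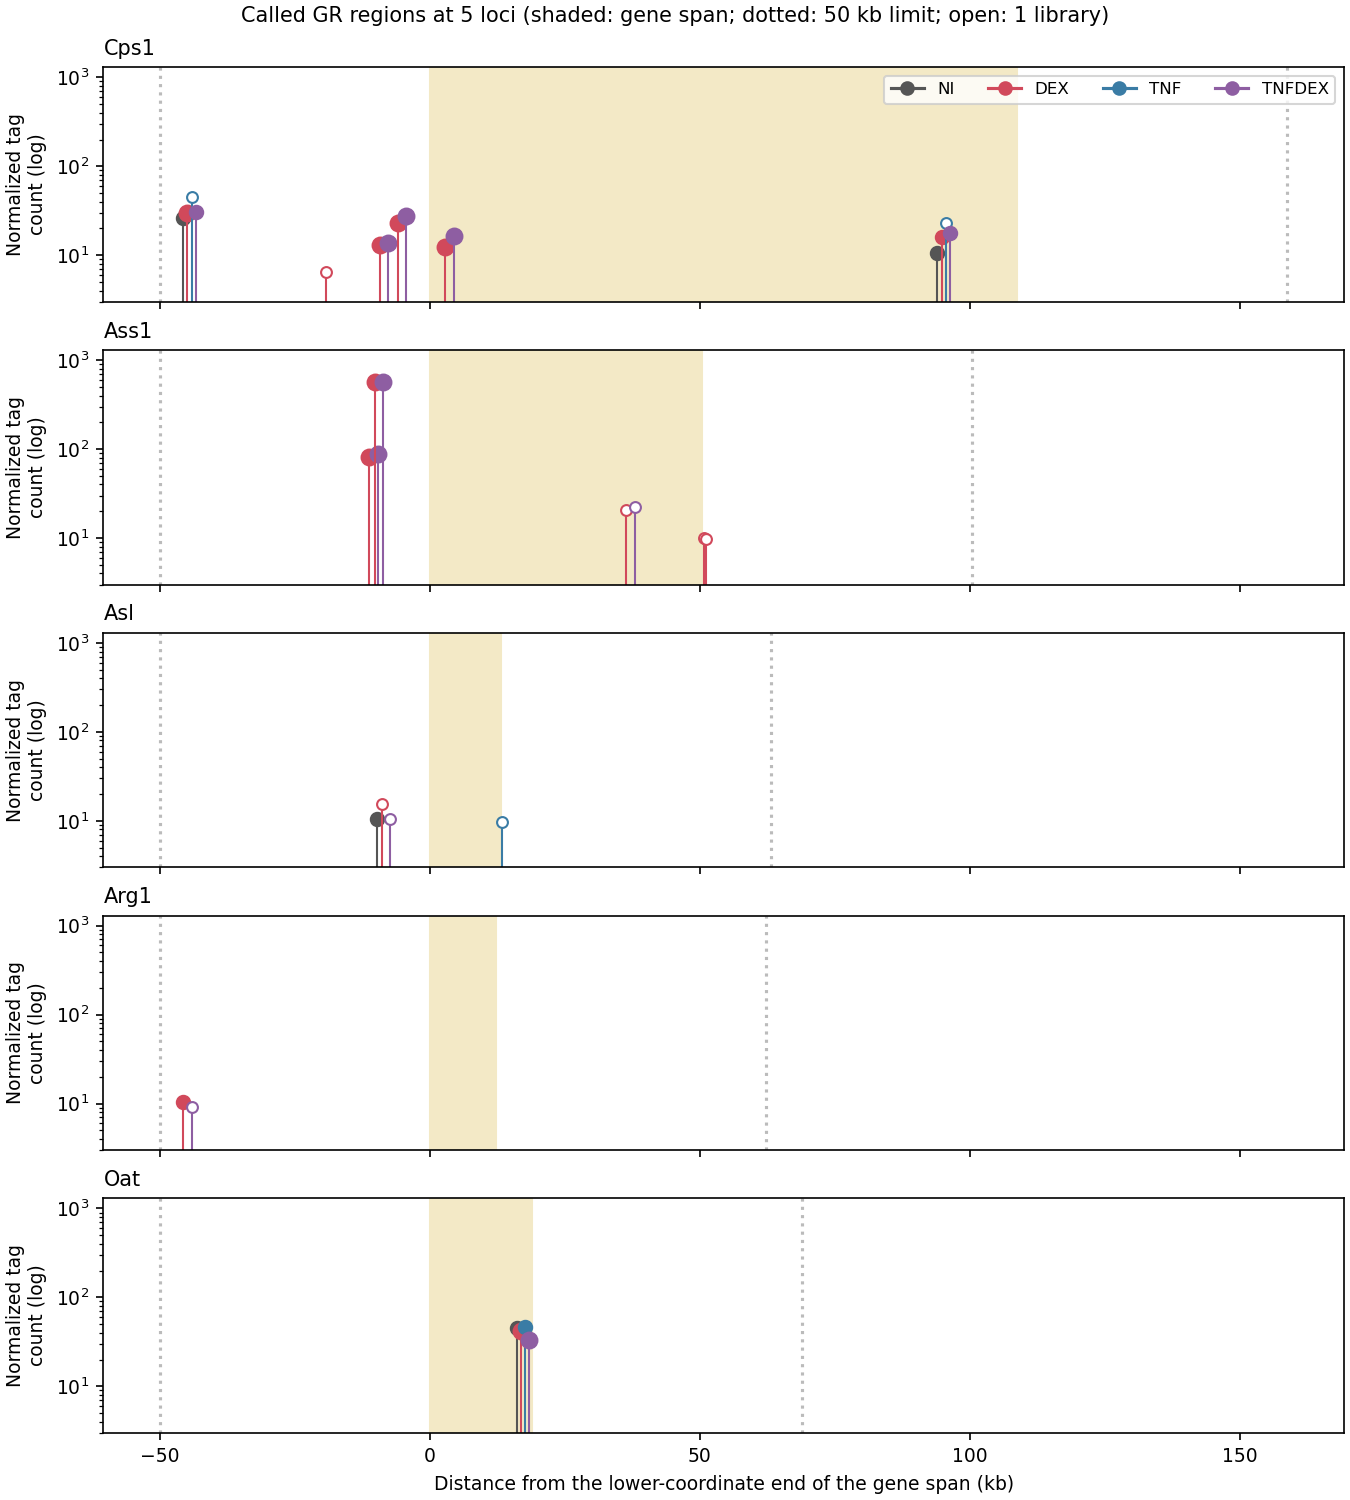
Mean normalized tag count (log scale) of each called region against its distance in kb from the lower-coordinate end of the gene span, which is shaded; colours are the 4 groups, shifted sideways for sight, larger symbols have more called libraries and open symbols a single one. Ass1 has the only values above 100, Cps1 the most regions, and Asl and Arg1 stay near 10.

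The 50 kb limit left few sites at its edge. Just inside it were the Arg1 region at 45.3 kb (9.1 to 10.7) and the Cps1 region at 44.5 kb (17.3 to 44.6). Just outside were a region 52.5 kb from Ass1, with 8.6 in TNFDEX 2 only, and a region 55.1 kb from Asl, with 12.1 in NI 2 and 14.8 in DEX 2, and a region 59.4 kb from Oat, with 8.1 in TNF 1. With a limit of 100 kb, 7 more regions entered, and none was called in 2 libraries of a group.

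DEX and NI were compared first, for binding that follows Dex. Of 14 member regions called in any of these 6 libraries, 5 had a call in every DEX library and in no NI library, namely the Ass1 pair and the 3 Cps1 regions. The share over all such regions of the series was 12.9%. The opposite pattern was found at 0 member regions and at 0.0237% of all. By gene, 2 of the 5 had such a region, against 18.3% of protein-coding genes, and the long Cps1 span gives its window more room (208.8 kb against 112.3 kb for Arg1). Because the members were chosen with results known, these counts are descriptions and carry no test. In lists of equal length the count was 2, the Ass1 pair, and the share over all regions called there in NI or DEX was 13.7%. Members with a call in NI or DEX in these lists were fewer than 14. They were the Ass1 pair, Oat, the Asl region in Gusb and the Cps1 regions at 44.5 kb, 5.6 kb and 95.2 kb (inside). With calls in at least 2 libraries, 4 of the 15 member regions were present in NI (2 at Cps1, 1 at Asl, 1 at Oat), 9 in DEX, 1 in TNF and 8 in TNFDEX. Over all 47493 regions the shares were 4.23%, 19.6%, 1.95% and 24%, so more regions had such calls in DEX than in NI over the whole series too, where the DEX lists are longer. The 4 NI regions rested on NI 1 and NI 2 alone, and the count was 0 when either was left out.

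By gene, a region in at least 2 libraries was found at 3 of the 5 in NI, at 4 in DEX, at 1 (Oat) under TNF alone and at 3 under both agents. Among all protein-coding genes the shares were 14.8%, 36.5%, 6.08% and 39.4%. The gene present in DEX and not in TNFDEX by this count was Arg1, whose TNFDEX call came from 1 library. Its calls were in DEX 1, DEX 2 and TNFDEX 1, the only Dex libraries with low mitochondrial signal. The part of this split in the Arg1 calls was not tested.

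Signal could be tested only at regions called in every library compared, with limma on log2 values after TMM scaling (the trimmed mean of M values, over the regions tested), so differences are relative to the typical region. None of the 15 entered for DEX against NI, because NI 3 had no call at any. Of the 179 regions that did, 12.8% were higher and 4.47% lower with Dex, and a fit that blocked on the replicate number called 33 higher and 16 lower (limma). Without NI 3, 1024 regions could be tested, with a median shift of 0.54 log2 before scaling. Oat was then at 41.6 in DEX and 44.9 in NI (log2 difference -0.78, SE 0.41, limma adjusted p = 0.213). The Cps1 region at 44.5 kb was at 29.9 and 26.4 (-0.38, SE 0.23, limma adjusted p = 0.274). Neither passed, and neither was higher with Dex relative to the typical region. Without NI 3, DEX 3 was the only library compared with high mitochondrial signal. Oat had 20.7 in DEX 3, 53.0 and 51.0 in DEX 1 and 2, and 38.6 and 51.2 in NI 1 and 2. The part of the split in these differences was not tested.

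TNFDEX and DEX were then compared, for binding under Dex with and without TNF. With TNF given 1 h before Dex and 3 h of stimulation in all, the time with Dex may differ too. TNF and time with Dex cannot be told apart here. No member region was called in all 3 libraries of one group and in none of the other, against 0.663% of regions with TNFDEX only and 0.0626% with DEX only. The 5 regions called in all 6 Dex libraries and in no other are called under both treatments by that definition. In lists of equal length the Ass1 pair was still called in 3 of 3 DEX and 3 of 3 TNFDEX libraries. The Cps1 region at 5.6 kb was called there in 1 DEX and 1 TNFDEX library. The Cps1 regions at 8.9 kb and, inside the gene, at 3.19 kb had no call in these lists. In limma on the 4023 regions called in all 6 libraries, 1 region was higher with TNF (0.0249%), 0 were lower, and 257 had an unadjusted p under 0.05. The 1 region had Cemip2 as its nearest gene, named after its values were seen, and was no member. No region was called with library totals, with a mean of at least 20, or without DEX 1, DEX 2, TNFDEX 2 or TNFDEX 3, while 15 were called with the replicate block, 29 with the mitochondrial term, 24 without DEX 3 and 5 without TNFDEX 1 (limma).

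The Ass1 site at 9.8 kb differed by -0.07 on the log2 scale between TNFDEX and DEX (SE 0.37, 95% interval -0.90 to 0.77, limma adjusted p = 0.988). The interval thus leaves room for changes of up to nearly 1 log2 unit in either direction. The weaker Ass1 region differed by 0.02 (SE 0.27, interval -0.59 to 0.63, limma adjusted p = 0.998). With the mitochondrial split as a term the stronger site was at -0.39 (SE 0.20, limma adjusted p = 0.398), and it was at 0.19 without DEX 3. Direction and size at Ass1 were therefore not settled at this number of libraries.

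The 3 Cps1 regions differed by 0.46 (5.6 kb, interval -0.50 to 1.43), -0.05 (8.9 kb, interval -0.59 to 0.50) and 0.26 (inside, interval -0.40 to 0.92), with limma adjusted p of 0.850, 0.979 and 0.878. At 5.6 kb the difference was 0.99 without DEX 3 (limma adjusted p = 0.134) and 0.11 with the mitochondrial split as a term (limma adjusted p = 0.895). Oat differed by -0.52 (interval -1.62 to 0.58, limma adjusted p = 0.853). Without DEX 3, its only DEX library with high mitochondrial signal, the Oat value was -1.13 (limma adjusted p = 0.124), and with the split as a term it was -0.09 (limma adjusted p = 0.919). None of the 6 regions passed in any setting tried. Their median difference was -0.01, as was that of all regions tested.

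**Figure D3:**
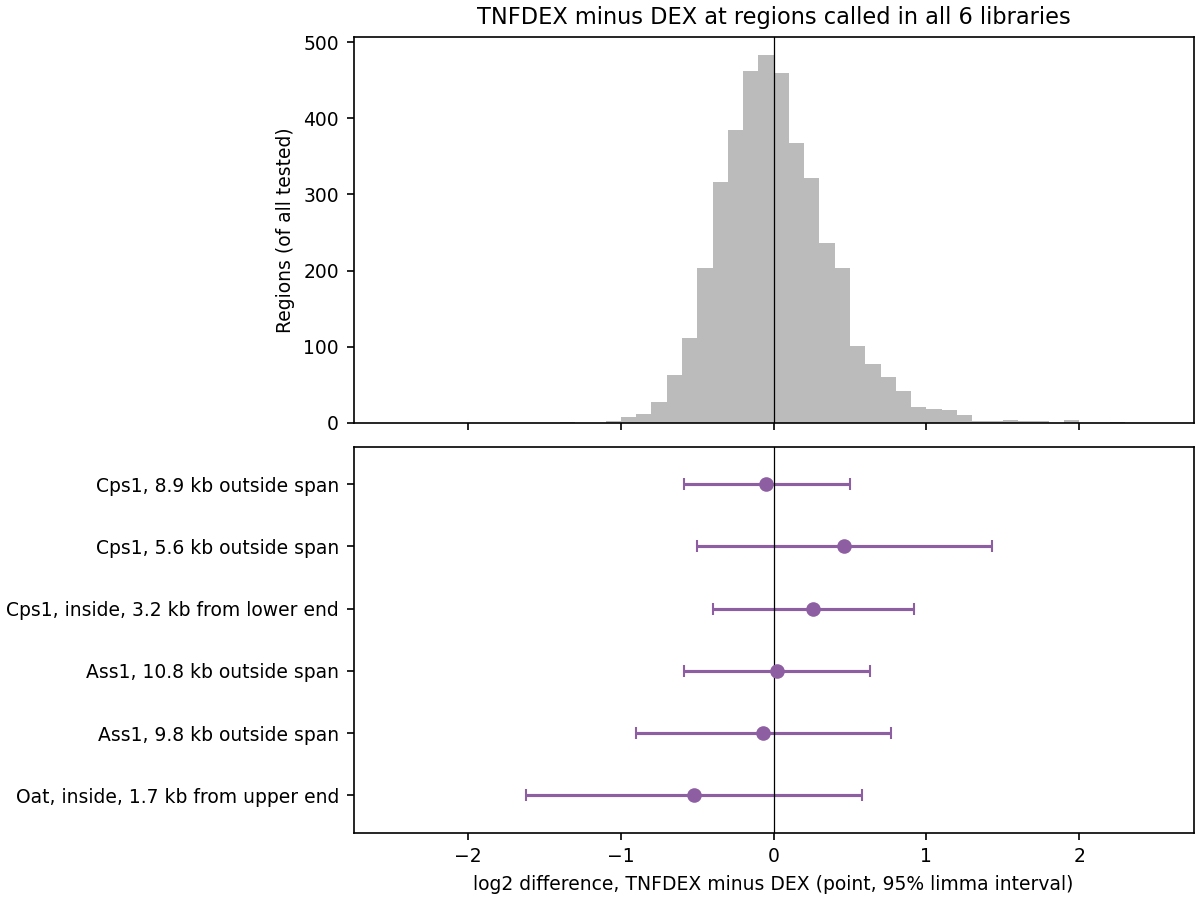
Top, histogram of the log2 difference TNFDEX minus DEX over the 4023 regions called in all 6 Dex libraries; bottom, the 6 member regions with points for the difference and bars for the 95% limma interval. All 6 bars cross 0, and the Oat and Cps1 5.6 kb regions have the widest.

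Between TNFDEX and TNF, only Oat could be tested among the members. Its means were 33.6 ± 20.7 (n = 3) and 46.3 ± 42.7 (n = 2), and relative to the other regions it differed by -0.90 (SE 0.34, limma adjusted p = 0.107). The median of the regions tested was 0.56 higher with Dex before scaling, and without TMM the Oat difference was -0.24 (limma adjusted p = 0.997). Oat passed with the mitochondrial split as a term (-0.82, SE 0.28, limma adjusted p = 0.0159). The SE of that fit was also 0.28 at the Odc1 site given below, so it does not measure the spread of Oat alone. The difference was -1.87 without TNF 2 and -0.45 without TNF 1, where a single TNF library is assumed to vary like the other group. Without TNF 2, TNF keeps only a library with low mitochondrial signal, while TNFDEX 2 and TNFDEX 3 have high signal. Treatment and split are thus mixed there. Oat had a limma adjusted p of 0.0614 to 0.442 in the other settings with TMM and both TNF libraries. Of 508 regions tested, 11.4% were higher and 0.984% lower in TNFDEX. The split was 58 higher and 5 lower, and it became 7 and 0 with library totals, 2 and 0 with the replicate block, 99 and 73 with the mitochondrial term, and 286 and 214 without TNF 2 (limma).

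With TNF alone, neither library had a call at the Ass1 pair or at the 3 Cps1 regions called in all Dex libraries. The calls were 4 regions in TNF 1 (Oat, 2 at Cps1 and the one inside Asl) and only Oat in TNF 2. No member could be tested for TNF against NI, where limma called 0 of 152 regions and 0 had an unadjusted p under 0.05. Without NI 3, Oat was at 46.3 in TNF and 44.9 in NI (log2 difference -0.37, SE 0.38, limma adjusted p = 0.981). TNF 2, the only library then compared with high mitochondrial signal, had 16.1, and TNF 1 had 76.5.

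The gene sites with values most like those of the stronger Ass1 region were sought among 2375 protein-coding genes outside the list whose strongest DEX region was called in the same 6 libraries. Likeness was the Euclidean distance of log2 values over these 6 libraries. The nearest were Cblb (0.53), Slc45a1 (0.83), Nek7 (0.85), Rab4a (0.89) and Arl4d (1.1), which shares its region with Dhx8. The region inside Cblb had 386.2, 417.6 and 780.6 in DEX and 575.6, 463.0 and 870.9 in TNFDEX. That its profile resembles the one at Ass1 follows from how it was chosen.

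The same was done for 11 further genes of ammonia, ornithine and glutamine metabolism. Among them, regions within 50 kb in at least 2 libraries were found at 3 genes in NI, 7 in DEX, 3 under TNF alone and 6 under both agents, and 4 had a region called in every DEX and no NI library. The shares over all protein-coding genes were, as above, 14.8%, 36.5%, 6.08% and 39.4%, and 18.3% for the last pattern. The urea cycle genes Otc (ornithine transcarbamylase) and Nags (which makes the activator of Cps1) had none in any group. Otc had no peak at all, and Nags 7 peaks in 6 regions.

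The strongest of these sites belonged to Arg2, the mitochondrial arginase gene. It lay 26.8 kb from Arg2 and nearer to Pigh (chromosome 12, 79103914 to 79104127), with 247.4, 294.2 and 373.9 in DEX, 350.9, 164.6 and 363.1 in TNFDEX and 10.1 in TNF 1. A site 2.6 kb from Slc25a13, which encodes the aspartate and glutamate carrier citrin (chromosome 6, 6219724 to 6220004), had 97.2, 103.0 and 301.1 in DEX, 177.1, 127.1 and 246.7 in TNFDEX and 11.7 in TNF 1. Glul, the glutamine synthetase gene, had a site inside its span (chromosome 1, 153901525 to 153901713) with 61.5, 59.7 and 57.7 in DEX and 112.4, 36.0 and 67.8 in TNFDEX. At each of these sites the DEX and TNFDEX values overlapped, with log2 differences of -0.27, 0.14 and -0.03 (limma adjusted p = 0.816, 0.954 and 0.998). NI had no call at any of the 3.

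A site 37.5 kb from Odc1, the gene of ornithine decarboxylase, which starts polyamine synthesis from ornithine, was also called in all 6 Dex libraries (chromosome 12, 17507093 to 17507463). It had 7.9, 13.3 and 14.6 in DEX, 27.8, 37.2 and 77.7 in TNFDEX, 13.7 and 7.3 in TNF, and no call in NI. Every TNFDEX library was above every DEX and TNF library. Of the 4023 regions called in all 6 Dex libraries, 2.59% had every TNFDEX library above every DEX library. Neither difference at the Odc1 site passed in the main fit. The log2 difference from DEX was 1.75 (SE 0.43, interval 0.79 to 2.71), with a limma adjusted p of 0.39, and from TNF it was 1.45 (SE 0.54, limma adjusted p = 0.104). The difference from DEX passed with the replicate number as a block (limma adjusted p = 0.00591), although it is not known whether these numbers pair the TNFDEX and DEX libraries. It also passed without TNFDEX 1 (2.31, limma adjusted p = 0.0283). The limma adjusted p lay between 0.0714 and 1 in the other settings. The difference from TNF passed with the mitochondrial split as a term (1.21, limma adjusted p = 0.000152) and without TNFDEX 1 (2.15, limma adjusted p = 0.00407). With that term the SE was 0.28 both here and at Oat, so it does not measure the spread of this site alone. The limma adjusted p of the difference from TNF was 0.0583 to 0.346 in the other settings with both TNF libraries. Sites at Gls2, Aldh18a1 and Sirt5 were weak, with DEX means of 9.80, 14.1 and 13.1 in 2 libraries each.

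**Figure D4:**
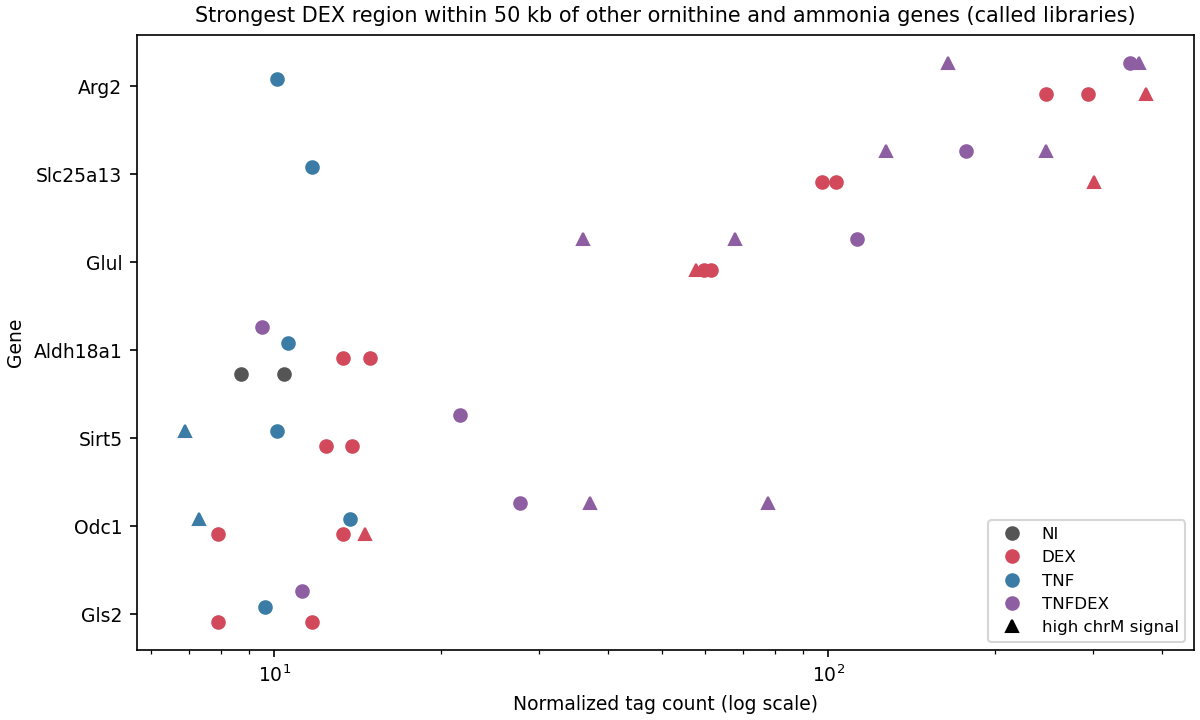
Normalized tag count (log scale) in each called library at the strongest DEX region of the 7 further genes that had one in at least 2 DEX libraries; colours are groups and triangles mark libraries with high mitochondrial signal. Arg2, Slc25a13 and Glul carry Dex-library values of 36.0 to 373.9, and at Odc1 the TNFDEX symbols lie to the right of the DEX and TNF symbols. TNFDEX lay wholly above DEX at 2.59% of the 4023 regions called in all 6 Dex libraries.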

How the data were processed

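GR ChIP-seq peak lists of 11 libraries were used; the input library was not analysed here on its own. The build mm10 and the tools HOMER 4.6, Bowtie 1.0.0 and CASAVA 1.8 are named per the submitters' processing notes. Per the file headers, the authors ran HOMER findPeaks in factor mode on each library alone against 1 input, requiring a false discovery rate of 0.001 and, both over input and over the surrounding 10000 bp, 4-fold enrichment with a Poisson p of 0.0001. The deposited signal is the normalized tag count, scaled to 20000000 tags. The authors' ratios (fold over input and surroundings), fraction (focus ratio), score and p-values are values of each peak and were used for description and filters only. Duplicate handling is not given in the sources used here.

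Peaks sharing at least 1 bp were joined into regions, and the largest was kept where a library had several. Gene spans came from the GRCm38.p6 RefSeq table (21896 protein-coding genes), which has the coordinates of mm10; strand was known for Ass1 and Oat from RefSeq promoter entries. No count model was run, because the windows behind the values are placed anew in every library. limma 3.58.1 in R 4.3.3 was fitted to log2(normalized tag count), with no pseudocount, over all regions called in every library of 2 groups, with TMM scaling and Benjamini-Hochberg adjustment at 0.05, and was tested on simulated data. Python 3.11.15, numpy 2.4.6, pandas 2.3.3 and matplotlib 3.10.9 were used.

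The mitochondrial sets were split at the largest gap on the log scale. Replicate numbers come from the titles. Deviations of same-numbered NI and DEX libraries correlated across regions (r = 0.52, 0.54 and 0.68 for numbers 1 to 3). That comparison is therefore also given with the number as a block. In these groups only NI 3 and DEX 3 had high mitochondrial signal, so number 3 and the split cannot be told apart. For TNFDEX and TNF, r was 0.51 and 0.45 for numbers 1 and 2. In both groups number 1 had low and number 2 high mitochondrial signal, so number and split cannot be told apart there either. With 2 TNF libraries, whose deviations mirror each other, these r values are not separate checks. The series calls its replicates biological. The members, lists and tests were chosen with earlier results of these data known. The rule named each region called in at least 2 libraries of a group, with the 3 strongest in DEX per gene given by library. The remaining regions at the 5 genes were named, and given by library, after their values were seen. The 11 further genes and the likeness measure were set with the lists.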

Additional observations from a re-analysis of the deposited data

How the results depend on the processing

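For DEX against NI, 31 regions were called, 49 with the replicate block, 60 with the mitochondrial split as a term and 10 to 146 with a library left out. The split of 23 higher and 8 lower became 32 and 0 with library totals. For TNFDEX against DEX the 1 call became 0 with library totals or a mean of at least 20, 2 with a pseudocount of 1, 15 with the replicate block, 29 with the mitochondrial term and 0 to 24 with a library left out. For the replicate numbers of TNFDEX and DEX, r was 0.37, -0.37 and 0.58. Only number 2 joins a library with high and one with low mitochondrial signal, so these values cannot show whether the numbers pair the libraries. The block changed no call at a member. TNF against NI had 0 calls, 1 with the mitochondrial term, and 0 with any library left out. TNFDEX against TNF had 63, 7 with library totals, 2 with the replicate block, 172 with the mitochondrial term and 32 to 500 with a library left out.

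Member differences between TNFDEX and DEX that changed sign were those of 3 regions near 0. The Cps1 region at 8.9 kb (-0.05) was 0.10 with library totals and -0.20 to 0.05 with a library left out. The weaker Ass1 region (0.02) was -0.15 with the mitochondrial term and -0.11 to 0.27 with a library left out, and the stronger (-0.07) was 0.08 with library totals and -0.29 to 0.33 with a library left out. Member regions called in at least 2 libraries were 4 in NI, 2 at 8-fold over input, 0 if every library was required, 2 with lists of equal length (2524 peaks) and 0 to 4 with a library left out. With lists of equal length DEX had 4 in place of 9 and TNFDEX 2 in place of 8, and, in a count added after the results were seen, 2 regions in place of 5 were called in every DEX and no NI library. Left with 1 library, TNF gave no such count. The causes were not tested. Calls rest on as few as 15 tags, so a missing call is weak evidence of missing binding.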
